A study of Mus musculus with 3 samples.

Results

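The Mitf locus held 12 of the 18528 TFAP2A peaks of replicate 1 and 14 of the 21459 peaks of replicate 2, and these 26 peaks made up 15 distinct regions, of which 11 were found in both replicates. A peak belonged to the locus when its summit, the base of highest signal, lay in the annotated Mitf gene or within 100 kb to either side of it. In the mm9 build of the mouse genome, Mitf (ENSMUSG00000035158.8) runs on the plus strand over chr6:97757052-97971352, which is 214.301 kb, and the locus with its flanks covered chr6:97657052-98071352, which is 414.301 kb. This rule uses position only, not peak height. TFAP2A was immunoprecipitated from chromatin of melan-a cells in 2 independent ChIP-seq experiments with an AP-2alpha (3B5) antibody. Melan-a is an immortalized melanocyte line derived from normal embryonic mouse skin, and all 3 libraries, the input control included, carried the Cdkn2a tm1RDp/tm1RDp genotype and came from cells with no experimental treatment, grown in medium with a phorbol ester and cholera toxin. There was no second condition, all values come from 1 cell line, and with 2 replicates the spread is given as SD (n = 2) and no test was run. Each replicate's fold enrichment is the height of a peak over its local background as the peak caller wrote it. No read counts were used here, so the depth behind each value is unknown, and the input, for which no table was used here, entered only through peak calling.

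MITF is a basic helix-loop-helix leucine zipper transcription factor that binds E-box and M-box elements and directs the melanocyte lineage, where its targets include the enzymes of melanin synthesis. The gene has several alternative promoters, each with its own first exon spliced to common downstream exons. The A promoter is the most upstream and is used in many tissues, while the M promoter lies close to the common exons and is the melanocyte promoter, at which SOX10, PAX3, LEF1 and CREB are known to act. TFAP2A is a member of the AP-2 family, which binds GC-rich elements and is expressed in neural crest and its derivatives.

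The annotation used, GENCODE vM1, lists 10 Mitf transcripts with 7 distinct start sites. The A start, used by Mitf-001, was at chr6:97757052 and the M start, used by Mitf-006, at chr6:97941786, 184.734 kb further downstream. Between them lay the starts of Mitf-003 at 97879793, Mitf-004 at 97888488 and Mitf-005 at 97890912. The locus contained 3 other annotated genes, the small RNA genes U6 and SNORA17 in the upstream flank and the pseudogene Gm15531 in intron 1, and no other protein-coding gene. Peaks are named below by the distance of the replicate 1 summit from the M start, with negative values upstream.

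The sequences that follow are 101 bp centred on the replicate 1 summit, on the plus strand of mm9. They are shown because they are the 3 shared regions with the highest mean enrichment (-10.1 kb, -26.9 kb and +55.2 kb) and the only shared region in a promoter interval of an annotated Mitf transcript (-52.0 kb). Capitals mark every match to the TFAP2 consensus GCCNNNGG on either strand, so a run longer than 8 letters is made of overlapping matches.
-10.1 kb, chr6:97931617-97931717: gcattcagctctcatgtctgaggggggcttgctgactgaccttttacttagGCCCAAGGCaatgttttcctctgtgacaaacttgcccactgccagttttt
-26.9 kb, chr6:97914872-97914972: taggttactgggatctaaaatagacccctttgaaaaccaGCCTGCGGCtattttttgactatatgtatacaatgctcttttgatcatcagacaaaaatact
+55.2 kb, chr6:97996910-97997010: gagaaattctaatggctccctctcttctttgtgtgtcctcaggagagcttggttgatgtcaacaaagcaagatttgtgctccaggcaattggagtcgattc
-52.0 kb, chr6:97889730-97889830: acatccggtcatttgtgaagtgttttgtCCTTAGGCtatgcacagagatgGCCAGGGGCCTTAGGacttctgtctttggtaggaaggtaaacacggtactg

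The M promoter itself is shown from 250 bp before to 50 bp after the annotated start, because replicate 2 placed a weak summit in it. Here the capitals mark a CRE, TGACGTCA, and a match to the TFAP2 consensus.
M promoter, chr6:97941536-97941835: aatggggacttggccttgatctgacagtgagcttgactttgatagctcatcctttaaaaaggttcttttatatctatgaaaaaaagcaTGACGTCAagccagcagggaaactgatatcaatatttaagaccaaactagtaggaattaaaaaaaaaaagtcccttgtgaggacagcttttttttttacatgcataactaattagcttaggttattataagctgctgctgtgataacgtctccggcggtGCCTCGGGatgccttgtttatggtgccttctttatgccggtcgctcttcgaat

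TFAP2A peaks were denser across Mitf than over the genome in both replicates. The locus held 29.0 peaks per Mb in replicate 1 and 33.8 in replicate 2 (31.4 ± 3.41, SD, n = 2). The assembled chromosomes as a whole held 6.96 and 8.07 peaks per Mb, and chromosome 6 held 7.32 and 7.46. The density at Mitf was thus 4.16 times the genome value in replicate 1 and 4.19 times in replicate 2 (4.17 ± 0.0212, SD, n = 2). The difference between locus and genome was larger than the spread between the replicates. That spread does not cover counting error over the 12 and 14 peaks, most of which the 2 lists share. It also does not show how density varies between loci. By shared peaks per Mb, 90.8% of protein-coding genes lay below Mitf, as given further below.

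Along the gene, the 184.734 kb from the A start to the M start held 9 peaks in replicate 1 and 10 in replicate 2, with 8 shared. The first of them lay 76.275 kb past the A start, a distance that is read from the peaks themselves. The 29.567 kb from the M start to the end of the gene, which contain the common coding exons, held no peak in either replicate. In the 100 kb downstream of the gene there were 3 peaks in each replicate, all of them shared, while the 100 kb upstream held 0 peaks in replicate 1 and 1 in replicate 2. Binding was therefore found in the large 5′ introns and downstream of the gene, and none was called over the closely spaced 3′ exons. That stretch is short, and whether 0 peaks is fewer than its length would give was not tested.

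By the exons of Mitf-001, intron 1 (133.765 kb) held 5 peaks in each replicate with 4 shared, and intron 2 (51.824 kb) held 4 peaks in replicate 1 and 5 in replicate 2 with 4 shared. Introns 3 to 9 held none. Neighbouring shared summits were between 2.04 and 65.3 kb apart, with a median of 14.5 kb. Of the 11 shared regions, 1 lay in a promoter interval, taken here to reach from 5 kb before a start to 1 kb after it, 7 lay in introns outside these intervals, 3 were intergenic and 0 lay in exons. Over the 16099 shared replicate 1 peaks on assembled chromosomes, 28.8% lay in promoter intervals, 37.3% in introns, 32.0% in intergenic sequence and 1.86% in exons, and each of these shares lies inside the exact 95% binomial (Clopper-Pearson) interval of the Mitf count. The intervals were wide, 0.230 to 41.3% for promoters and 30.8 to 89.1% for introns, and 0 to 28.5% for exons. These limits cover counting error over regions only.

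**Figure D1:**
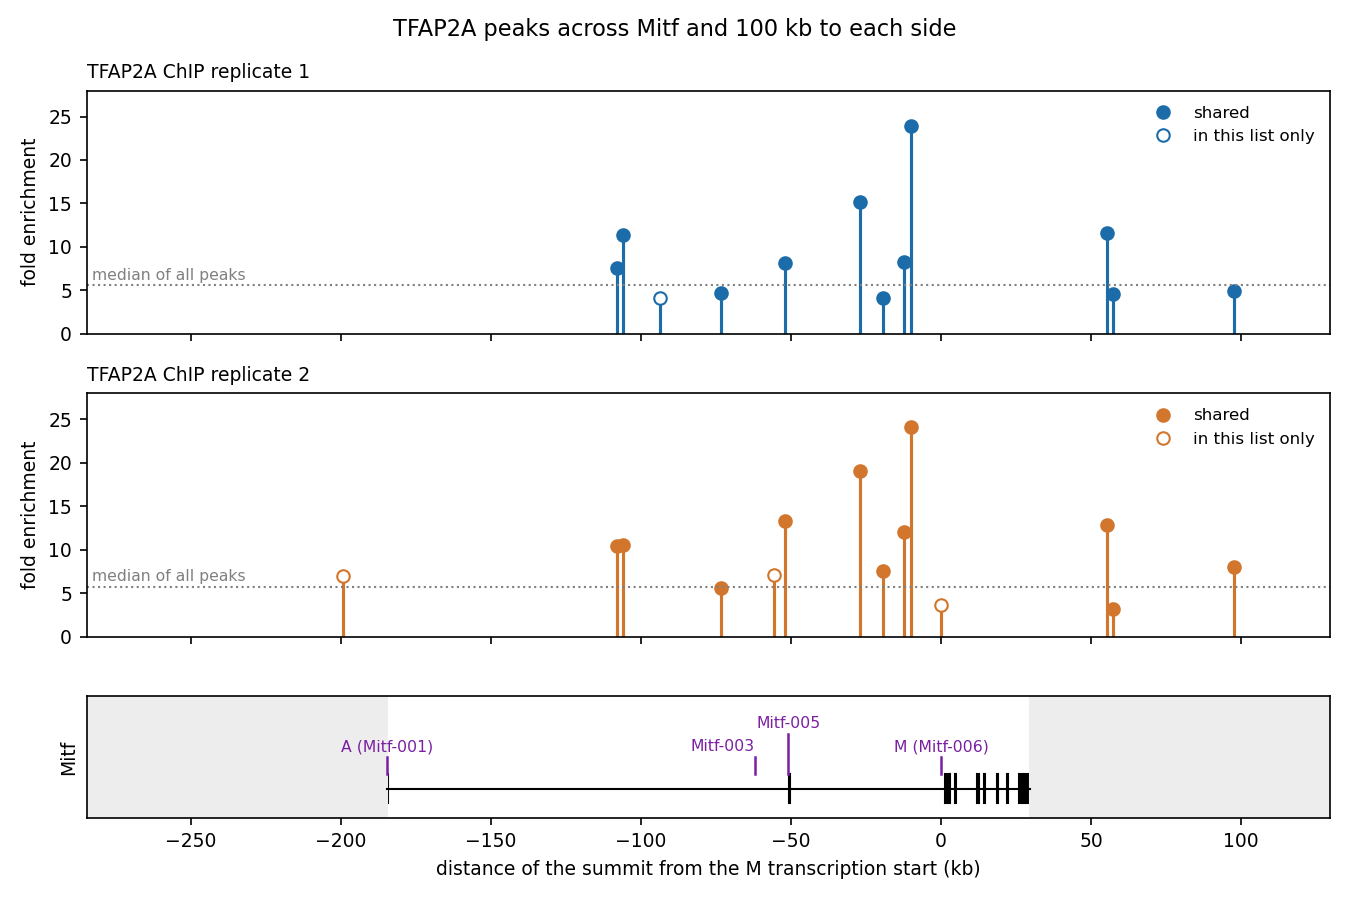
Fold enrichment of every TFAP2A peak of the Mitf locus in replicate 1 (top, 12 peaks) and replicate 2 (middle, 14 peaks) against the distance of its summit from the M start in kb, with filled points for shared regions and open points for peaks in 1 list only; the bottom strip shows the exons of Mitf-001 as black boxes, the flanks in grey and 4 transcription starts. The tallest peak stands at -10.1 kb in both replicates, and no point falls between the M start and the end of the gene.

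The strongest TFAP2A peak of the locus lay 10.1 kb upstream of the M start, in intron 2 (chr6:97931222-97932209). Its fold enrichment was 23.9 in replicate 1 and 24.1 in replicate 2 (24.0 ± 0.177, SD, n = 2; the values in brackets below are of the same kind). The peak stood above 98.7% of the replicate 1 list and 99.1% of the replicate 2 list, and it also had the highest -log10 p of the locus, 196 and 174. The summits of the replicates were 5 bp apart. The study's ChIP-qPCR primer pair for a Mitf enhancer candidate, placed on mm9 by exact match, amplifies 101 bp of this peak, chr6:97931661-97931761. The forward primer begins 6 bp before the replicate 1 summit and spans the TFAP2 match, which is in capitals here, as it is in the summit sequence above.
Forward primer, chr6:97931661-97931680: tacttagGCCCAAGGCaatg
Reverse primer, chr6:97931742-97931761, minus strand: ataaccaggcagcaagctct

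The second strongest region lay 26.9 kb upstream of the M start, also in intron 2 (chr6:97914619-97915401), with enrichments of 15.2 and 19.0 (17.1 ± 2.69). Both replicates placed it above all regions of the locus but the -10.1 kb region. A pair of weaker shared regions lay near these. At -12.2 kb (chr6:97929296-97929826) the enrichment was 8.23 and 12.0 (10.1 ± 2.66), and at -19.3 kb (chr6:97921856-97922682) it was 4.05 and 7.53 (5.79 ± 2.46). The -19.3 kb region differed most between the replicates, by a ratio of 1.86, and its replicate 1 peak was 338 bp wide against 827 bp in replicate 2. These 4 intron 2 regions, grouped after their positions were seen, lay within 30 kb upstream of the M start. They spanned 17.591 kb and carried 49.4% of the summed mean enrichment of the 11 shared regions, 57.0 of 115.

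The M promoter was called in 1 replicate only. In replicate 2 a peak at chr6:97941574-97941843 had its summit 27 bp upstream of the M start. Its enrichment was 3.63, at the 12.4th percentile of the replicate 2 list, with a -log10 p of 11.5, against a lowest value of 5.06 in that list. Replicate 1 had no peak there, and its list reached down to a -log10 p of 5.05. The absence of a call in replicate 1 does not show that TFAP2A was absent, since without counts the signal below the calling threshold was not measured here. The TFAP2 match in this promoter, GCCTCGGG, ran from -3 to +4 around the annotated start and the CRE ran from -162 to -155, where 0 is the start base itself. Among the 32851 promoters of the RefSeq table (GRCm38.p6, windows of the same length), 54.8% held the TFAP2 consensus and 1.79% held the CRE. The SOX (ACAAAGG or ACAATGG), M-box (TCATGTG) and E-box (CACGTG) letters were not found in the M promoter window, and occurred in 9.28%, 3.77% and 7.15% of the RefSeq promoters. RefSeq lists 3 Mitf promoters, and all 3 sequences were found without mismatch in mm9, with starts at 97757052, 97879811 and 97941777. The RefSeq and GENCODE positions of the M start differ by a few bases, and the replicate 2 summit is upstream of both.

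Neither replicate had a peak in the promoter interval of the A start. The nearest peak upstream of the A start was a replicate 2 peak at chr6:97742197-97742428, 14709 bp away, with an enrichment of 7.003. The nearest downstream was the -108.1 kb region, which begins 76.275 kb past the A start in intron 1. Between the A and M starts, the promoter intervals of the middle transcripts held 1 shared region and 1 replicate 2 peak. The shared region at -52.0 kb (chr6:97889602-97890017) lay 1132 bp upstream of the Mitf-005 start, and its enrichment was 8.18 and 13.2 (10.7 ± 3.58). The replicate 2 peak, at chr6:97886125-97886429, lay 2231 bp upstream of the Mitf-004 start and had an enrichment of 7.04. Neither lay within 1 kb of a start, so the promoter count depends on how wide an interval is used.

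Intron 1 held 3 further shared regions far from any start. The pair at -108.1 kb (chr6:97833327-97833959) and -106.0 kb (chr6:97835458-97835975) had summits 2.04 kb apart, the smallest gap between shared regions. The -108.1 kb region had enrichments of 7.57 and 10.4 (9.01 ± 2.03), and the -106.0 kb region had 11.4 and 10.6 (11.0 ± 0.584). The order within the pair was clear in replicate 1 but the values nearly met in replicate 2. At -73.4 kb (chr6:97868210-97868737) the enrichment was 4.66 and 5.63 (5.15 ± 0.689), below the median of all peaks in each list, 5.56 and 5.75. The only region found in replicate 1 alone, at -93.6 kb (chr6:97848056-97848404), was also low, with an enrichment of 4.05 at the 23.8th percentile of its list.

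Downstream of the gene, where no other gene is annotated within the locus, all 3 regions were shared. The first, 25.608 kb past the gene end (chr6:97996298-97997434), was the third strongest of the locus by the mean, with 11.6 and 12.8 (12.2 ± 0.900), although in replicate 2 the -52.0 kb region was higher, and at 1137 bp in replicate 1 it was the widest. Its -log10 p of 128 and 124 was the second highest of the locus in both replicates. A weak companion 27.824 kb past the gene end (chr6:97998939-97999523) had 4.55 and 3.21 (3.88 ± 0.945), the lowest mean of the shared regions. The last, 68.084 kb past the gene end (chr6:98039287-98039576), had 4.91 and 7.96 (6.43 ± 2.15), and both replicates placed its summit on the same base. Which promoter, if any, these downstream regions act on was not tested.

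In order of mean enrichment the shared regions ran -10.1, -26.9, +55.2, -106.0, -52.0, -12.2, -108.1, +97.7, -19.3, -73.4 and +57.4 kb. Only 4 of the 10 steps in this order were larger than the spread between replicates, in the sense that both values of the higher region exceeded both values of the next. These were the steps below the -10.1 kb region, below the -26.9 kb region, below the +55.2 kb region and above the +57.4 kb region. Each step compares only adjacent regions in the order. The -52.0 kb region, at 13.2 in replicate 2, exceeded both values of the +55.2 kb region, and the -19.3 kb region, at 4.05 in replicate 1, was below the 4.55 of the +57.4 kb region, so the place of the +55.2 and +57.4 kb regions was not the same in both replicates. From the -106.0 kb to the -73.4 kb region, the values of each region overlapped those of the next.

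The calls at Mitf were shared between the replicates about as often as calls elsewhere. In replicate 1, 11 of 12 peaks (91.7%, exact 95% binomial interval 61.5 to 99.8%) shared 1 bp or more with a replicate 2 peak, against 87.1% of all replicate 1 peaks. In replicate 2, 11 of 14 peaks (78.6%, 49.2 to 95.3%) overlapped a replicate 1 peak, against 76.0% of all replicate 2 peaks. Both background shares lie inside the intervals, which cover counting error over peaks only. The 4 regions called once had enrichments of 3.63 to 7.04, and the median of all peaks found in 1 list was 3.99 in replicate 1 and 4.60 in replicate 2.

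By the median, the shared Mitf regions were taller and wider than shared peaks in general. Their median enrichment was 8.18 in replicate 1 and 10.6 in replicate 2, against 5.93 and 6.40 for all shared peaks. Their median width was 518 and 528 bp, against 450 and 399 bp. Counting all members, 7 of 12 in replicate 1 and 11 of 14 in replicate 2 were above the median of their list, and 2 and 5 were among its highest 10%. By definition about as many peaks of a list lie above its median as below it, and 10% lie in its highest 10%. The replicate 1 counts were close to these shares, and no interval is given for either replicate.

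Pair by pair, the enrichment was higher in replicate 2 in 9 of the 11 shared regions, against 57.8% of the 16069 shared pairs of the whole lists, a share inside the exact interval of 48.2 to 97.7%, so the count does not set the Mitf regions apart. The ratio of replicate 2 to replicate 1 had a median of 1.25 at Mitf, with a range of 0.706 to 1.86, against a median of 1.05 for all pairs. All 11 ratios were within 2-fold, as were 98.4% of all pairs. The replicates ordered the 11 regions alike, with a Spearman rho of 0.909 across regions (n = 11) against 0.847 across all pairs, given as a description because the regions share libraries. The summits of a shared region were a median of 6 bp apart, with a range of 0 to 99 bp, against 24 bp over all pairs.

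**Figure D2:**
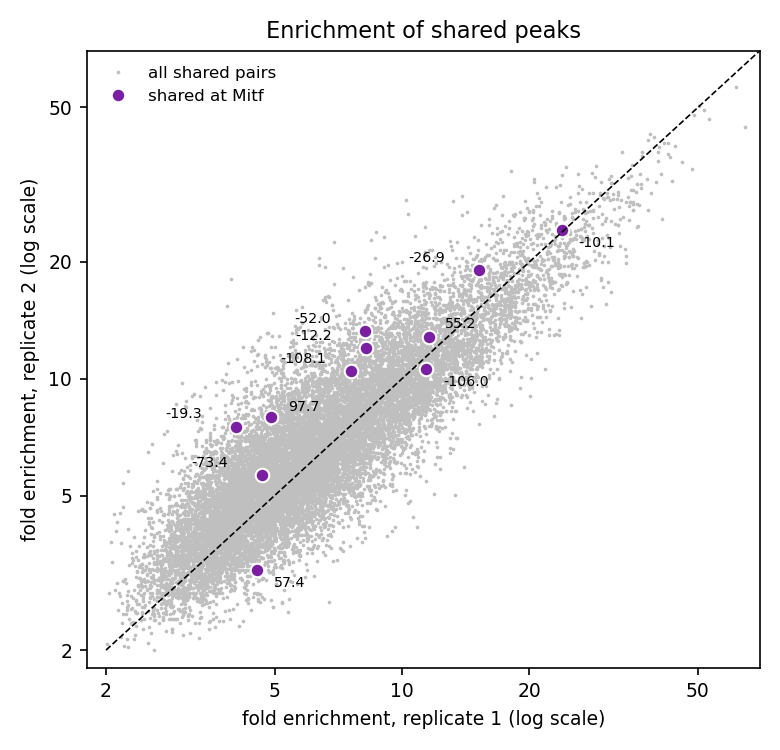
Fold enrichment in replicate 2 against replicate 1, both on log scales, for the 16069 shared pairs of the whole lists (grey) and the 11 shared Mitf regions (purple, labelled by the distance from the M start in kb), with a dashed line of equal enrichment. The -10.1 kb region lies on the line near the upper end, and only the -106.0 and +57.4 kb regions lie below it.

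The TFAP2 consensus was found at the strongest intronic summits but not at all summits. Within 50 bp of the replicate 1 summit, GCCNNNGG on either strand was present in 5 of the 11 shared regions, against 57.1% of all shared peaks, and the exact interval of 16.7 to 76.6% includes that share. These 5 were the -10.1, -12.2, -26.9, -52.0 and -106.0 kb regions, all inside the gene, and they were 5 of the 6 with the highest mean enrichment. At the replicate 2 summits 6 of 11 had it, the addition being the +57.4 kb region, whose match lies 100.5 bp from the replicate 1 summit. In the -10.1, -12.2 and -26.9 kb regions the centre of the match was 5, 5.5 and 7 bp from the replicate 1 summit. The -52.0 kb region held a match centred 18.5 bp to the left of the summit and, 7 bp to its right, a run of 15 bases made of 3 overlapping matches. Regions with 2 or more separate matches made up 10.4% of all shared peaks. The -106.0 kb match was the farthest from its summit, at 26.5 bp.

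In equally long windows 400 bp away on either side, 0 of 22 held the consensus at the Mitf regions, with an exact interval of 0 to 15.4%, and 15.3% of such windows held it over all shared peaks, a share inside that interval. With the replicate 2 summits 1 of 22 did. The +55.2 kb region had no match within 50 bp of its summit in either replicate, as its sequence above shows. It held 4 matches elsewhere in the peak, the nearest 259.5 bp from the summit. The -108.1 and +97.7 kb regions held no match anywhere in the replicate 1 peak. Over whole peaks 9 of the 11 shared regions held at least 1, against 81.6% of all shared peaks. The median GC content of the 101 bp windows was 46.5% (33.7 to 54.5%), below the 51.5% of all shared peaks. The part of base composition in the match counts was not tested.

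Letters bound by other melanocyte factors were found within 50 bp of 2 of the 11 shared summits, against 23.7% of all shared peaks. Within 100 bp they were found at 6 of the 11, against 40.3%, so the side of this comparison depended on the width used. With the replicate 1 summits, 2 of the 11 had the SOX letters no more than 50 bp away, against 5.21% of all shared peaks (exact interval 2.28 to 51.8%). These were the -108.1 kb region, with its match centred 13 bp from the summit, and the -19.3 kb region, with its match centred 8 bp away, and neither had a TFAP2 match within that distance. The M-box, the E-box, the AP-1 element (TGACTCA or TGAGTCA), the TEAD element (GGAATG) and the CRE were at 0 of 11, against 2.01%, 1.78%, 6.36%, 10.5% and 0.217% of all shared peaks, and 0 of 11 allows each of these shares. With the replicate 2 summits, the SOX letters were near 1 of 11, the -19.3 kb summit, and the TEAD letters near 1 of 11, the -108.1 kb summit, while the other 4 elements were again at 0. At the replicate 1 peak at -93.6 kb, which was not shared, an M-box began 1 bp after the summit.

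Over whole replicate 1 peaks the matches were more frequent. The SOX letters were found in 7 of the 11 shared regions (exact interval 30.8 to 89.1%) against 21.6% of all shared peaks. The M-box was found in 4, at -108.1, -26.9, -19.3 and -10.1 kb, against 9.29% (10.9 to 69.2%). The E-box was found in 2, at -12.2 and -10.1 kb, against 7.86% (2.28 to 51.8%). AP-1 and TEAD letters were found in 4 regions each, against 19.5% and 33.9% (10.9 to 69.2% for each). The CRE was found in 0, against 0.975% (0 to 28.5%). The share of all shared peaks lies below the interval for SOX and the M-box. It lies inside the interval for the E-box, AP-1, TEAD and the CRE. Several elements and window widths were searched, with no correction for their number. In the -10.1 kb region, the M-box was centred 75 bp and the nearest SOX match 127 bp from the summit, on opposite sides of it. In the replicate 2 peaks the counts were 7 for SOX, 4 for the M-box, 1 for the E-box, 3 for AP-1, 4 for TEAD and 0 for the CRE. The Mitf peaks were also wider than shared peaks in general, by the medians given above, and the part of width in these counts was not tested, and a match of letters is not a measured binding site.

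**Figure D3:**
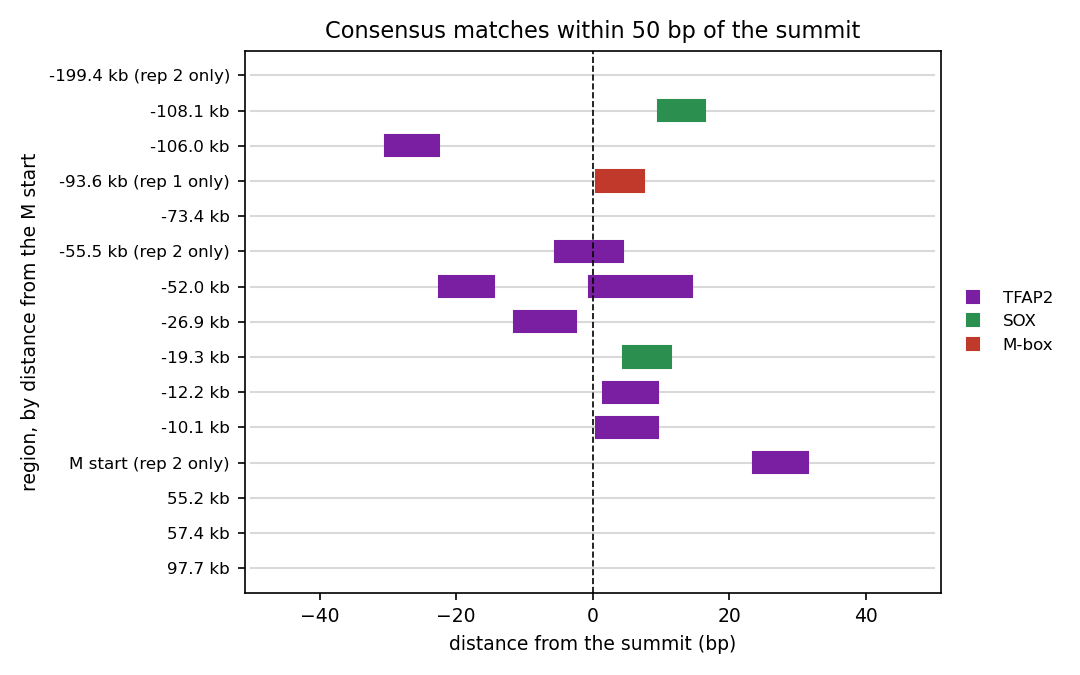
Positions of TFAP2 (purple), SOX (green) and M-box (red) consensus matches within 50 bp of the summit for the 15 regions, in their order along the chromosome and labelled by distance from the M start, with the replicate 1 summit at 0 (replicate 2 where it was the only one). TFAP2 matches sit within 30 bp of the summit in 5 shared regions, and the 3 regions downstream of the gene show none.

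Set beside other genes, Mitf was among those with many shared TFAP2A peaks. With the same definition, gene body plus 100 kb to each side, Mitf had 26.6 shared peaks per Mb, more than 90.8% of 22367 protein-coding genes, whose median was 8.16 per Mb and whose upper quartile was 16.3. By number, 11 shared peaks were more than those of 98.3% of genes, with a median of 2, and 28.3% of genes had 0. The rank by number is not adjusted for window length, which grows with the gene, and Mitf is 214.301 kb long. These ranks describe the 2 peak lists only, since the windows of neighbouring genes overlap.

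Among the relatives of Mitf in the MiT family, Tfeb and Tfe3, which direct lysosomal genes, had 4 and 3 shared peaks (15.7 and 14.1 per Mb), and Tfec had 0. Of 10 genes known to act on Mitf or on its activity, 9 had a shared peak, against 71.7% of all protein-coding genes, with a median of 10.5 per Mb, and 2 exceeded Mitf. These were Sox10, the neural crest transcription factor, with 15 peaks and 71.6 per Mb, and Pax3, a paired-box factor, with 9 peaks and 30.4 per Mb. Of 14 known MITF targets, 13 had a shared peak, against the same 71.7%, with a median of 17.8 per Mb, and none exceeded Mitf. The nearest was the receptor tyrosine kinase gene Met at 22.6 per Mb, and Tyr, which encodes tyrosinase, had 0. The medians of both lists were above that of all genes, as were 7 of the 10 regulators and 13 of the 14 targets. By definition about as many of all genes lie above that median as below it. No interval is given for these counts over short lists. The 2 highest regulators were well above their list median.

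**Figure D4:**
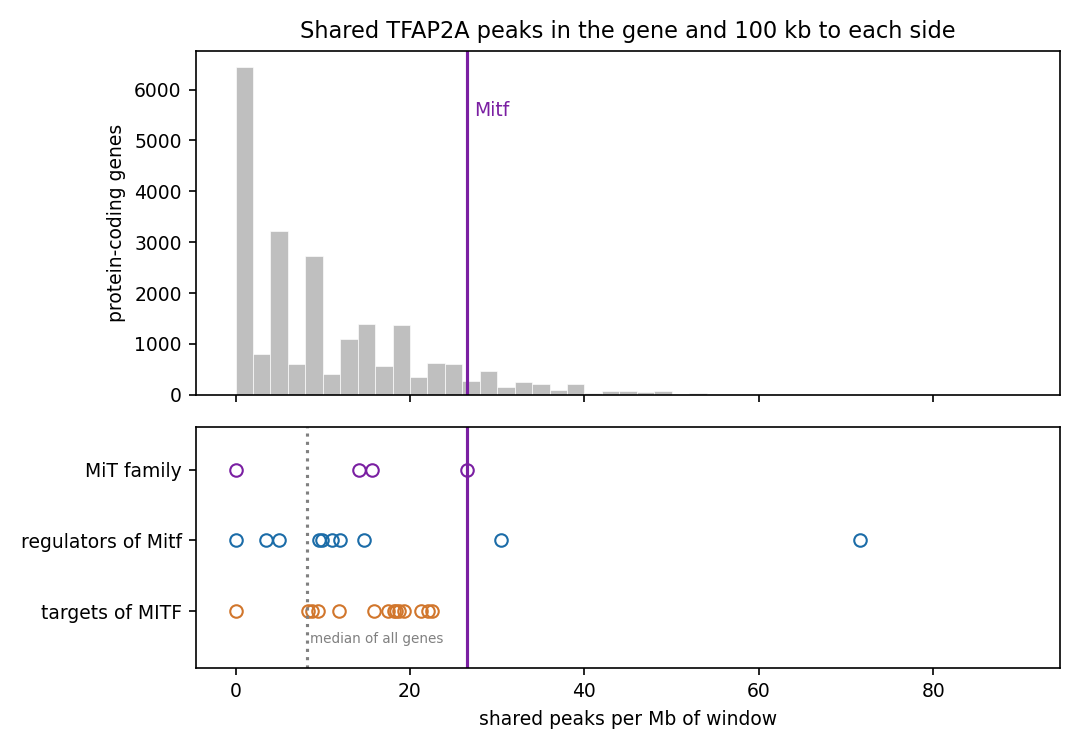
Shared TFAP2A peaks per Mb of gene body plus 100 kb to each side, as a histogram over 22367 protein-coding genes (top) and as 1 open circle per gene for 3 gene lists (bottom), with Mitf marked by the purple line at 26.6 per Mb and the median of all genes by the dotted line at 8.16 per Mb. Only Sox10 and Pax3 among the listed genes lie to the right of Mitf.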

How the data were processed

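TFAP2A ChIP was done in melan-a cells in 2 replicates, with 1 input library. Reads were aligned to mm9 with BWA and peaks called with MACS 1.4.2, as the submitters' processing notes name them. The authors deposited 1 peak list per replicate, not pooled, giving for each peak a score, a fold enrichment, a -log10 p-value, a -log10 q-value and a summit offset. The lists were used as deposited, with 1-based positions. Depth is unknown, so precision is known only from the 2 replicates. Peaks were shared if they overlapped by at least 1 bp, and pairs were mutual largest overlaps. Genes, starts and exons came from GENCODE vM1, whose coordinates are mm9. Consensus matches no more than 50 bp from a summit were sought on either strand and merged where they overlapped, and equal windows 400 bp away gave the local background. RefSeq promoters (GRCm38.p6) were used only by sequence. Every peak, shared region and gene of the locus was reported, and the sequences shown were the summits of the shared region in a promoter interval and of the 3 shared regions with the highest mean enrichment, the M promoter and the Mitf primers. Members, motifs and gene lists were chosen with earlier results of these data known. Counting and matching were tested on simulated peaks. Alternatives were a stricter threshold, other overlap rules, windows, summits, promoter widths and consensus letters, and each replicate alone. Software was Python 3.11.15, pandas 2.3.3, scipy 1.17.1, pysam 0.24.0 and samtools 1.23.1.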

Additional observations from a re-analysis of the deposited data

How the results depend on the processing

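With 1 group of 2 replicates no test was possible, and some comparisons with all shared peaks changed side. The TFAP2 consensus was below the share of all shared peaks with GCCNNNGG and above it with GCCNNNGGC. Matches to any other factor searched were below that share within 50 bp, and above it within 100 bp and in the whole peak. When each list was limited to its more enriched 50%, 7 of the Mitf peaks of replicate 1 and 7 shared peaks were left, 100% of the replicate 1 peaks were shared, and the density was 21.7 peaks per Mb. The density was 44.3 per Mb in the gene body alone, 38.2 with 50 kb to each side and 24.4 with 200 kb. No shared region (0) lay within 1 kb of a start. The longer consensus GCCNNNGGC was found near 3 shared summits in place of 5, against 19.1% of all shared peaks in place of 57.1%. A match to any other factor searched was found at 2 of the 11 shared regions within 50 bp (23.7% of all shared peaks), 6 within 100 bp (40.3%) and 10 in the whole peak (63.1%), and, with the replicate 2 peaks, an alternative chosen after seeing the data, at 2 within 50 bp and 10 in the whole peak. Mitf had more shared peaks per Mb than 92.2% of genes with 50 kb to each side and 87.1% with 200 kb. With each replicate alone, this share was 89.8 to 91.0%, the density 29.0 to 33.8 per Mb, the enrichment of the strongest region 23.9 to 24.1 and the median of the shared regions 8.18 to 10.6. Apart from each replicate alone, 36 values of the main results stayed within 1.5 times for counts, and within 1 SD or the 95% interval otherwise. No paired analysis was possible because there was no second group. Read depth is unknown, so a missing call cannot be told from a weak signal.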

Other observations

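The reverse primer listed for the study's Dct ChIP-qPCR pair has the same sequence as the reverse primer of the Mitf enhancer pair. In mm9 it matched exactly only at chr6:97931742-97931761, inside the peak 10.1 kb upstream of the M start. The Dct forward primer matched chr14:118451818-118451837.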
